A study of Mus musculus with 2 samples.

Results

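*Coch*-positive dermal fibroblasts were cells of the dermal library from imiquimod (IMQ)-treated mouse skin that carried fibroblast RNA and at least 2 unique molecular identifiers (UMIs, 1 per captured transcript) of *Coch*. A cell had to hold 200 to 5000 genes and at most 10% mitochondrial UMIs. The fibroblast genes *Col1a2*, *Pdgfra*, *Dcn* and *Lum* had to sum to at least 20 per 10000 UMIs, with under 20 per 10000 from the macrophage complement genes *C1qa*, *C1qb* and *C1qc* and under 20 per 10000 from the basal keratins *Krt5* and *Krt14*. The members were thus chosen by their measured *Coch*, fibroblast, C1q and keratin UMIs, and those values are given as a description. The rule gave 169 cells out of 10634 in both libraries, 4721 dermal cells within the limits on genes and mitochondria and 404 dermal fibroblasts (41.8% of the fibroblasts). Another 50 fibroblasts held 1 *Coch* UMI and 185 held 0, which are called *Coch*-negative.

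The series holds 1 dermal library (5376 barcodes, 41258087 UMIs, median 6086 per barcode) and 1 epidermal library (5258 barcodes, 108768396 UMIs, median 16965). Both came from wild-type C57BL/6 mice that were 10 weeks old per the labels and received IMQ, an agonist of Toll-like receptors that causes psoriasis-like inflammation, for 5 days on the ear. The methods add that dermal CD45+ live cells and all epidermal live cells were sorted, and they give a younger age for the IMQ model. Untreated skin was not analysed here, and the number of animals behind each library is not given in the sources used here. The labels give only the removal of dead cells by sorting. If the sort was on CD45, which marks immune cells, fibroblasts came through beside the sorted population, and their number does not measure their share of the skin. With 1 library per tissue there was no replicate and no test. All intervals are 95% intervals for counting error only and leave out the spread between cells and animals.

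Dermal fibroblasts build and remodel the collagen matrix of the skin. Those of the papillary dermis lie under the epidermis, those of the reticular dermis lie deeper, and dermal papilla and dermal sheath cells surround the hair follicle. *Coch* encodes cochlin, a secreted matrix protein with von Willebrand factor A domains that is best known from the inner ear, where mutations cause hearing loss. *Gldn* encodes gliomedin, a collagen-like protein of Schwann cells that helps to gather sodium channels at nodes of Ranvier, and *Tnc* encodes tenascin-C, a large matrix glycoprotein that appears in healing and inflamed skin.

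*Coch* lies at chr12:51593341-51605771 on the plus strand of GRCm38 (GENCODE M21), *Gldn* at chr9:54286486-54341786 (plus strand), *Dkk2* at chr3:132085292-132180304 (plus strand) and *Tnmd* at chrX:133850980-133865577 (plus strand). The windows from 250 bases before to 50 bases after the RefSeq start site (GRCm38.p6) are shown for *Coch* and for *Dkk2* and *Gldn*, whose levels were higher in members with more *Coch*, at chr12:51593091-51593390, chr3:132085042-132085341 and chr9:54286236-54286535. Capitals mark matches on either strand to TATAAA (the letters of a TATA box), CCAAT (bound by NF-Y) or TGANTCA (bound by AP-1 factors), none of which overlap here, and a match on the other strand stands as its reverse complement.
Coch: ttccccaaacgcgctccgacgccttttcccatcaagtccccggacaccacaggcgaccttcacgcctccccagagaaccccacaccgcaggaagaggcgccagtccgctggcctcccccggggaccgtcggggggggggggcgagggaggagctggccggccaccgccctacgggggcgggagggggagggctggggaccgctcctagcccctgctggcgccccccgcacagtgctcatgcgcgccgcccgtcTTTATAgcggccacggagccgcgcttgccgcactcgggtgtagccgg
Dkk2: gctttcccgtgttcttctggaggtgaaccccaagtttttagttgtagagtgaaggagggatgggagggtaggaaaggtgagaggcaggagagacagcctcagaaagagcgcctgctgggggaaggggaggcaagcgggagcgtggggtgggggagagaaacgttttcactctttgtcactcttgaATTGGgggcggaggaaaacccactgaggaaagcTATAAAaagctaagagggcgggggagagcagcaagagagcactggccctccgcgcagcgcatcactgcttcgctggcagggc
Gldn: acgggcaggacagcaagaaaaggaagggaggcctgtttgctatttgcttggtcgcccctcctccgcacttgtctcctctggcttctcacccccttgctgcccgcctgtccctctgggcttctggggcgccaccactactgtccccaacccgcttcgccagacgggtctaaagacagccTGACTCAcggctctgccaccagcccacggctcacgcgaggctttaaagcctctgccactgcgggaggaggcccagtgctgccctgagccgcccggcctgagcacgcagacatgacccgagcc
The *Coch* and *Dkk2* windows each held a TATAAA, which 13.6% of all 32851 mouse windows held. *Dkk2* also held a CCAAT (37.4% of all windows) and *Gldn* a TGANTCA (7.81%). The letters CAGATG (17.2%) and CTTTGA (16.0%) were in none of the 3 windows, and the windows of *Tnmd* and *Fibin* held none of the 5 motifs. Both RefSeq windows of *Tnc*, whose level did not follow that of *Coch*, also held a TATAAA, and the window of *Fmod*, whose level did, held a CCAAT and a CAGATG. The matches describe sequence only.

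The members carried the markers of fibroblasts beyond those that chose them. *Col1a1* and *Col3a1*, the main fibrillar collagens, were found in 148 and 150 of the 169 cells, *Sparc* in 162 and *Thy1* in 154. *Col1a1* stood at 1009 CPM (counts per 1000000 UMIs, from UMIs summed over the cells of a group) and at 11.8 CPM in 847 C1q macrophages of the same library, the measure of background here. *Gldn* had a UMI in 75 members and in 3 of those macrophages. Markers of other stromal and epithelial types were sparse. The 15 endothelial markers summed to 88 UMIs (35 of them *Ccl21a*), the 11 pericyte and smooth muscle markers to 71 (most abundant *Acta2*) and the 20 keratinocyte markers to 110 (most abundant *Krt10*). The 14 Schwann cell and melanocyte markers summed to 317, of which 278 were *Pmp22*, also a gene of fibroblasts, and the 14 muscle and adipocyte markers to 29. Of these 5 lists 1, 1, 1, 1 and 0 genes had enough UMIs to compare with *Coch*-negative cells, and 0 differed 2-fold. *Rgs5* of pericytes and *Sox10* of Schwann cells were at 0 in all members. *Tnc* did not set the members apart from other fibroblasts, as described below, so they are called by *Coch* alone.

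*Coch* varied widely among the members. The lowest member had 2 UMIs by construction, the median was 14, and the highest was 346. Counts of at least 10 were found in 100 members and of at least 100 in 17, and the 5 richest cells held 22.6% of the 6116 *Coch* UMIs. Per 10000 UMIs the members ran from 0.696 to 453, so the library held cells barely over the limit and cells in which *Coch* was among the abundant transcripts. The members' median depth was 9374 UMIs (503 to 28753), that of the cells with 1 *Coch* UMI 15601.5 and that of the *Coch*-negative fibroblasts 8162.

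Members held 87.5% of the *Coch* UMIs of all dermal cells within the limits. C1q macrophages stood at 20.8 CPM against 3386 CPM, and their highest cell had 19 UMIs. The epidermal library had 0 *Coch* UMIs and 0 cells past the fibroblast limits. The libraries shared 45 barcodes, of which 0 were members.

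**Figure D1:**
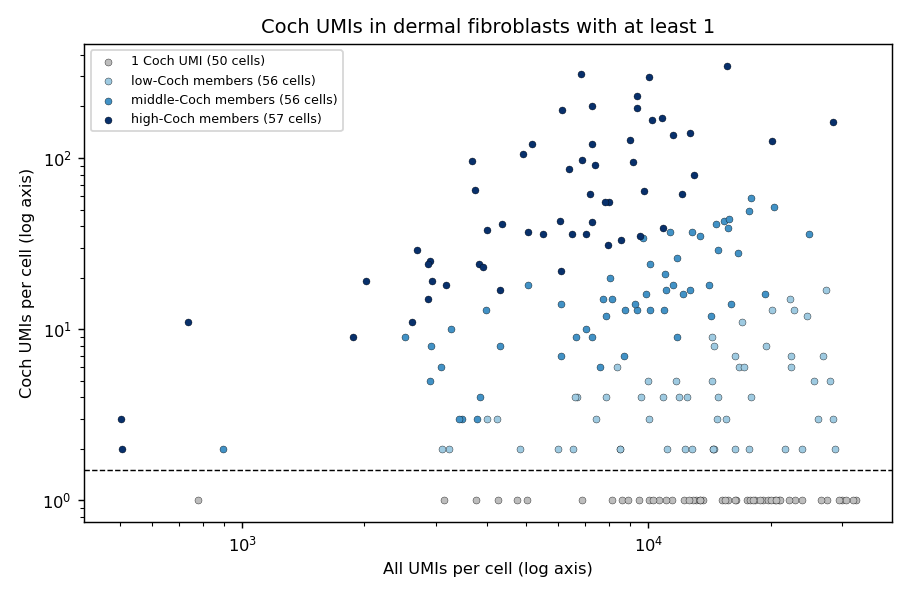
*Coch* UMIs per cell (vertical, log axis) against all UMIs per cell (horizontal, log axis) in the 219 dermal fibroblasts with at least 1 *Coch* UMI; each point is a cell, the dashed line separates members from cells with 1 UMI, and the shades are 3 nearly equal groups of members by *Coch* per 10000 UMIs. *Coch* counts spread from 2 to 346 at similar depths, and the cells richest in *Coch* were not the deepest.

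At the limit of the rule, the 20 members with exactly 2 *Coch* UMIs had 652 CPM of *Tnc*, 30.4 of *Gldn*, 73.9 of *Dkk2* and 26.1 of *Tnmd*. The 50 cells just outside, with 1 *Coch* UMI, had 870, 25.1, 32.6 and 51.4. The 6 members with 20 to 30 fibroblast-gene UMIs per 10000 held 34 *Coch* UMIs, and the 8 cells with at least 2 *Coch* UMIs and 10 to 20 fibroblast-gene UMIs held 30. The 12 members with 3 *Coch* UMIs had 131, 16.4, 65.7 and 0. In CPM *Dkk2* was thus higher in the cells just inside the limit than in those outside it, *Tnc* and *Tnmd* were lower, and *Gldn* lay on both sides of the outside value. These values rest on few cells and mostly few UMIs. Cells with 2, 3 and 1 *Coch* UMIs held 17, 8 and 26 *Dkk2*, 7, 2 and 20 *Gldn* and 6, 0 and 41 *Tnmd* UMIs. Of those 41, 1 cell held 18. Median depths were 11693, 5846 and 15601.5 UMIs, so the directions describe these cells only.

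Compared with the *Coch*-negative fibroblasts, members had more RNA of single genes such as *Tnmd*, *Dkk2*, *Mmp11* and *Lepr* and less RNA of cartilage genes, which lay in a few cells with 0 or 1 *Coch* UMI. The groups together held 50 UMIs or more of 5770 genes, of which 91 (1.58%) were at least 2-fold higher and 158 (2.74%) at least 2-fold lower in members, counts that describe this library and are no test. The median log2 ratio was 0.03. Single cells weighed on these counts, since 52 genes were 2-fold higher and 199 lower once the member richest in each gene was left out, and 172 higher and 107 lower once the *Coch*-negative cell richest in each gene was left out. Every measure in this comparison comes from the cells that the *Coch* count divided, so the values below are descriptions.

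*Tnmd*, which encodes tenomodulin of tendons, had 221 UMIs in 53 members and 61 UMIs in 18 *Coch*-negative cells, a CPM ratio of 3.57 (2.68 to 4.83). *Dkk2*, a secreted modulator of WNT signalling, had 277 UMIs in 93 members against 92 in 45, a ratio of 2.97 (2.34 to 3.80). Both genes were thus found in more members and at a higher level, and no member held more than 29 and 18 of their UMIs. *Mmp11*, a matrix metalloproteinase of stromal cells, had a ratio of 2.98 (2.18 to 4.13), *Lepr*, the leptin receptor, of 2.93 (1.90 to 4.62), and *Pth1r*, the receptor for parathyroid hormone and its related peptide, of 2.63 (1.93 to 3.60). *Trps1*, a GATA-type transcription factor needed for hair follicles, had a ratio of 2.69 (1.96 to 3.73). *Lepr* was found in 45 members, *Mmp11* in 60, *Pth1r* in 76 and *Trps1* in 81, so none of the 4 rested on a few cells. *Fibin*, a secreted factor first described in fin development, had a ratio of 6.60 (3.67 to 12.9), but 30 of its 87 UMIs were in 1 cell. *Saa1*, an acute-phase protein, had a ratio of 3.04 (2.48 to 3.75), with 106 of its 385 UMIs in 1 cell.

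The other genes with the largest ratios are known mainly from immune cells and keratinocytes. *Cd3g* of the T-cell receptor complex had a ratio of 3.84 (2.54 to 6.00) in 22 members, *Trem1* of neutrophils and monocytes 2.61 (1.95 to 3.53) in 62 and *Stfa2l1*, a neutrophil stefin, 2.52 (2.16 to 2.96) in 55. *Il1f9*, which encodes IL-36γ, and *Tnfsf9*, the ligand of 4-1BB, had ratios of 2.83 (1.85 to 4.44) and 2.50 (1.62 to 3.95). The chemokines *Ccl5* and *Ccl17* had ratios of 2.77 (1.89 to 4.15) and 15.5 (8.46 to 31.7). *Ccl17* lay in 4 members, 1 of which held 90 of its 173 UMIs, so its ratio rests on a few cells. With every cell weighted equally *Ccl5* was at 1.03, *Il1f9* at 1.16, *Stfa2l1* at 1.39 and *Trem1* at 1.80, all within 2-fold. In the same weighting *Ccl17* was at 8.04 and *Lepr* at 7.01. Without cells that held a *Ptprc* UMI, the ratio of *Cd3g* was 1.69, that of *Trem1* 1.66 and that of *Il1f9* 0.497, so that *Il1f9* turned lower, while *Tnmd*, *Dkk2*, *Gldn*, *Mmp11* and *Lepr* were at 3.43, 3.17, 2.17, 3.74 and 3.23. *Fibin* and *Saa1* were further from 1 without those cells, at 15.1 and 7.56. Against cells with 0 or 1 *Coch* UMI, *Fibin* was at 3.27. *Tnfsf9*, with 39 of its 76 UMIs in 1 member, was at 0.904 when members needed 3 *Coch* UMIs.

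*Gldn* itself had 148 UMIs in 75 members, or 44.4% (36.8 to 52.2) of them, against 68 UMIs in 35 *Coch*-negative cells, or 18.9% (13.5 to 25.3). The CPM ratio was 2.15 (1.60 to 2.91), and no member held more than 7 UMIs. At an equal depth of 3000 UMIs per cell, which left out 15 members and 43 *Coch*-negative cells, the expected shares with a UMI were 25.0% and 11.0%, against 0.0339% in C1q macrophages (median depth 9236 UMIs). The same shares were 32.7% and 14.0% for *Dkk2* and 19.8% and 5.28% for *Tnmd*. The differences in share therefore remained at matched depth.

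**Figure D2:**
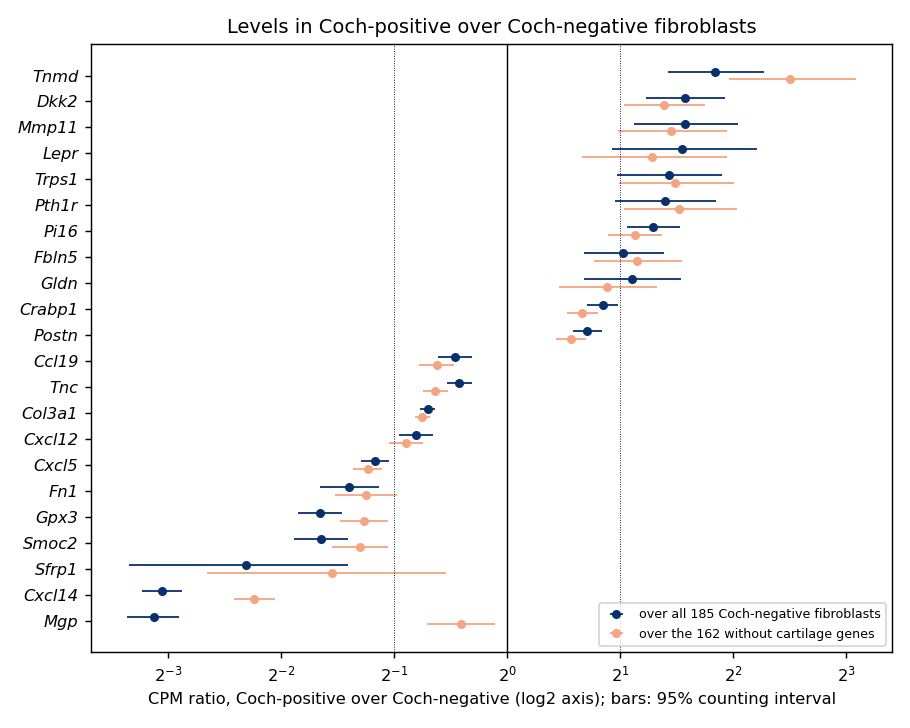
CPM ratio of *Coch*-positive over *Coch*-negative fibroblasts (horizontal, log2 axis) for 22 genes of the lists and of the largest ratios; dots are ratios with 95% counting intervals, dark over all 185 *Coch*-negative cells and light over the 162 without cartilage genes, and dotted lines mark 2-fold. *Tnmd*, *Dkk2*, *Mmp11*, *Lepr*, *Trps1* and *Pth1r* lay to the right in both, *Tnc* lay left of 1 in both, and *Mgp* moved most between them.

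*Tnc* was found in more members than *Coch*-negative fibroblasts, but not at a higher level. It had 1154 UMIs in 119 members, 70.4% (62.9 to 77.2) of them, and 1528 UMIs in 102 *Coch*-negative cells, 55.1% (47.7 to 62.4). The CPM was 639 in members, 870.0 in the cells with 1 *Coch* UMI and 857 in *Coch*-negative cells, a ratio of 0.745 (0.690 to 0.805). The order from high to low was thus cells with 1 *Coch* UMI, *Coch*-negative cells and members, and neighbours in it overlapped cell by cell. The median cell had 2.59 *Tnc* UMIs per 10000 among members, 3.17 among cells with 1 *Coch* UMI and 1.37 among *Coch*-negative cells, the opposite order for members and *Coch*-negative cells. The 5 richest cells held 31.5% of the *Tnc* UMIs of *Coch*-negative cells, 1 cell alone 200, and 19.0% of those of members.

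At 3000 UMIs per cell the expected shares with a *Tnc* UMI were 55.5% of members and 55.2% of *Coch*-negative cells. Depth-matched detection therefore did not separate the groups. With cells weighted equally the mean ratio was 0.998, and without the richest *Coch*-negative cell the summed ratio was 0.839. Macrophages had a *Tnc* UMI in 12.2% (10.0 to 14.6) of cells and 12.7 CPM, so *Tnc* RNA in both fibroblast groups was far above that background.

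**Figure D3:**
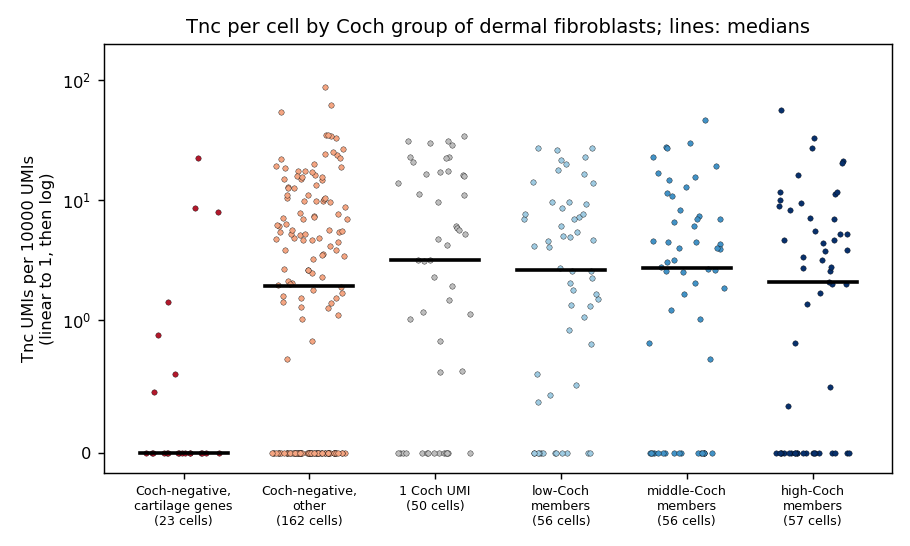
*Tnc* UMIs per 10000 UMIs in each dermal fibroblast (vertical, linear to 1 and logarithmic above) by *Coch* group (horizontal); points are cells and bars are medians. The groups with *Coch* overlap the *Coch*-negative fibroblasts without cartilage genes except for the highest of those cells, up to 87.1, and the 23 cells with cartilage genes lie mostly at 0.

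The genes lowest in members lay in a minority of the *Coch*-negative cells and were also found in cells with 1 *Coch* UMI. The tendon and cartilage list summed to 362 CPM in members, 1380 in the 50 cells with 1 *Coch* UMI and 1110 in *Coch*-negative cells. *Comp*, a cartilage matrix protein, had 2 UMIs in members and 205 in *Coch*-negative cells, a CPM 104 (28.4 to 864) times lower. *Cytl1*, a cytokine-like protein of cartilage, had 9 against 846 UMIs and *Prg4*, the joint lubricant lubricin, 2 against 122. *Chad*, *Sox9*, *Col9a3* and *Ucma*, all of cartilage, were at 0 UMIs in members and at 86, 80, 61 and 57 in *Coch*-negative cells. A count of 0 allows up to 3 UMIs, so their CPM was at least 29.1, 27.0, 20.6 and 19.3 times lower. *Prg4* lay in 7 and *Sox9* in 22 of the 185 *Coch*-negative cells, the fewest and the most for these 7 genes. Of the 23 listed tendon, cartilage and perichondrium genes 11 had enough UMIs, of which 1 (*Tnmd*) was 2-fold higher and 8 were lower, with a median log2 ratio of -6.38.

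The remaining genes of the 10 smallest ratios had the same pattern. *Myoc* (myocilin) had 6 UMIs in members against 910, *Angptl7* 1 against 113, *Fxyd3*, a regulator of ion transport, 3 against 185, and *Chil1*, a chitinase-like protein of cartilage cells and macrophages, 68 against 2766. *Clu* (clusterin), *Col8a1*, a short-chain collagen, and *Penk*, the enkephalin precursor, had 13, 11 and 22 UMIs against 478, 227 and 287. In all, 23 *Coch*-negative cells held at least 3 UMIs of the list's genes other than *Tnmd*, *Fmod*, *Kera* and *Scx*, a limit set after the values were seen. These 23 cells held 2678 of the *Chil1*, 895 of the *Myoc* and 461 of the *Clu* UMIs, and over the other 162 cells the ratios of these genes were 0.635, 0.329 and 0.629. The 50 cells with 1 *Coch* UMI held 2746 *Chil1*, 600 *Col8a1*, 555 *Clu*, 457 *Angptl7* and 174 *Comp* UMIs. When these cells counted as members, the ratios of *Comp*, *Chil1* and *Clu* were 0.588, 0.696 and 0.813, within 2-fold, and *Angptl7* and *Col8a1* turned higher, at 2.77 and 1.84, while *Myoc*, *Cytl1*, *Prg4*, *Penk* and *Fxyd3* were at 0.214, 0.210, 0.208, 0.186 and 0.377. The size of these low ratios therefore depended on the limit of 2 *Coch* UMIs. Against the other 162 cells, 98 of 5356 genes were at least 2-fold higher in members (1.83%) and 73 at least 2-fold lower (1.36%), with a median log2 ratio of 0.08. The ratios of *Tnmd*, *Dkk2*, *Gldn* and *Pi16* over those 162 cells were 5.68, 2.62, 1.84 and 2.19, that of *Tnc* 0.643, and that of *Mgp* went from 0.114 to 0.754. The lists below are therefore given over all *Coch*-negative cells and, where the number of 2-fold higher or lower genes differed, over those 162. Each count over the 162 cells stands beside 1.83% of all genes higher and 1.36% lower.

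The dermal sheath list overlapped others in the genes that were higher. Of 11 dermal sheath and follicle-associated genes with enough UMIs, out of 21 listed, 3 were at least 2-fold higher (*Tnmd*, *Dkk2* and *Ednra*, the endothelin A receptor), beside 1.58% of all genes, 1 was lower (*Abi3bp*, at a ratio of 0.400), and the median log2 ratio was 0.18. *Tnmd* is also the higher gene of the tendon list and *Dkk2* that of the WNT list. Over the 162 cells the counts were 4 (*Col11a1* in addition) and 0, beside 1.83% and 1.36% of all genes, with a median of 0.85. *Aspn* (asporin) stood at 314 CPM in members and 239.6 in *Coch*-negative cells, and *Acta2*, the contractile actin of the sheath, at 16.6 and 23.0. Of the 7 dermal papilla genes with enough UMIs, out of 23 listed, 0 were 2-fold higher and 1 was lower, *Fgf7* at a ratio of 0.348 (0.251 to 0.476). *Crabp1*, a retinoic acid binding protein, was the most abundant of them at 686 CPM against 382, and the papilla genes *Corin*, *Sox2* and *Notum* had 0, 0 and 5 UMIs in members. *Rspo4*, a WNT co-agonist of the papilla, had 34 UMIs in 24 members and 6 in 5 *Coch*-negative cells, too few for the minimum of 50.

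The papillary list had 1 of 10 genes 2-fold higher (*Trps1*) and 0 lower, with a median of 0.24, while the reticular and fascia list had 1 of 13 higher and 7 lower, with a median of -1.17. The higher reticular gene was *Pi16*, a peptidase inhibitor of adventitial fibroblasts, with 516 UMIs against 208 and a ratio of 2.45 (2.08 to 2.89). Among the lower genes, *Mgp*, an inhibitor of calcification, had 178 UMIs against 1539, and *Gpx3*, a secreted peroxidase, 286 against 891. Over the 162 cells 2 of 10 papillary genes were 2-fold higher (*Trps1* and *Wif1*), 5 of the 13 reticular genes were 2-fold lower (*Mfap5*, *Mfap4*, *Gpx3*, *Tnxb* and *Ace*, all among the 7) and the median was -0.41, against 0.08 for all genes. The lower reticular genes, 7 of 13, stand beside 2.74% of all genes, and *Pi16* was the only one of the 13 that was 2-fold higher. *Ly6a*, which encodes SCA-1, stood at 695 and 751 CPM, and *Pdpn*, a papillary glycoprotein, at 166 and 244.

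Matrix genes common to fibroblasts were mostly within 2-fold between groups. Of 20 pan-fibroblast genes 0 were 2-fold higher and 1 lower, with a median of -0.21, and *Col1a1* and *Col3a1* had ratios of 0.734 (0.690 to 0.780) and 0.613 (0.586 to 0.642). The lower gene was *Fn1*, fibronectin, with 170 UMIs against 442. *Postn* (periostin) had 1313 against 794, a ratio of 1.63 (1.49 to 1.78). Beside 1.58% of all genes higher and 2.74% lower, of 20 matricellular genes 2 were higher, *Wisp1* (73 against 25 UMIs, a WNT-induced secreted protein) and the elastic-fibre protein *Fbln5* (211 against 102), and 5 were lower, with *Ctgf* (27 against 292) and *Smoc2* (198 against 612) among them. Over the 162 cells 2 of 19 were lower. Of 12 basement membrane genes 0 differed 2-fold, and *Col4a1* stood at 150.0 and 131 CPM. Of 25 proteases and inhibitors 1 was higher (*Mmp11*) and 4 lower, and over the 162 cells 1 of 23 was higher and 1 lower. *Mmp3*, a stromelysin, had 2150 UMIs against 2984.

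Genes of axon guidance and neurite growth were examined because the study asks how fibroblasts, nerves and immune cells interact in the model. Of 79 listed, 22 had enough UMIs, 1 was 2-fold higher (*Gldn*), 2 were lower and 19 lay between, with a median of -0.13. Over the 162 cells 0 of 19 were 2-fold higher and 1 was lower. The guidance cue *Ntn1* (netrin-1) had 114 UMIs against 86, a ratio of 1.31 (0.980 to 1.75), the repellents *Slit2* and *Slit3* ratios of 1.11 (0.707 to 1.76) and 0.774 (0.600 to 0.997), and the semaphorin receptor *Nrp2* 1.42 (1.04 to 1.94). *Flrt2*, an adhesion protein of axons, had a ratio of 0.455 (0.245 to 0.815). Of 11 neurotrophic genes 0 were higher and 1 was lower, *Ptn* (pleiotrophin, 8 against 84 UMIs). The share of 2-fold higher axon guidance genes, 1 of 22, rests on *Gldn* alone, beside 1.58% of all genes. The lower ones, 2 of 22 and 1 of 11 neurotrophic genes, stand beside 2.74% of all genes.

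**Figure D4:**
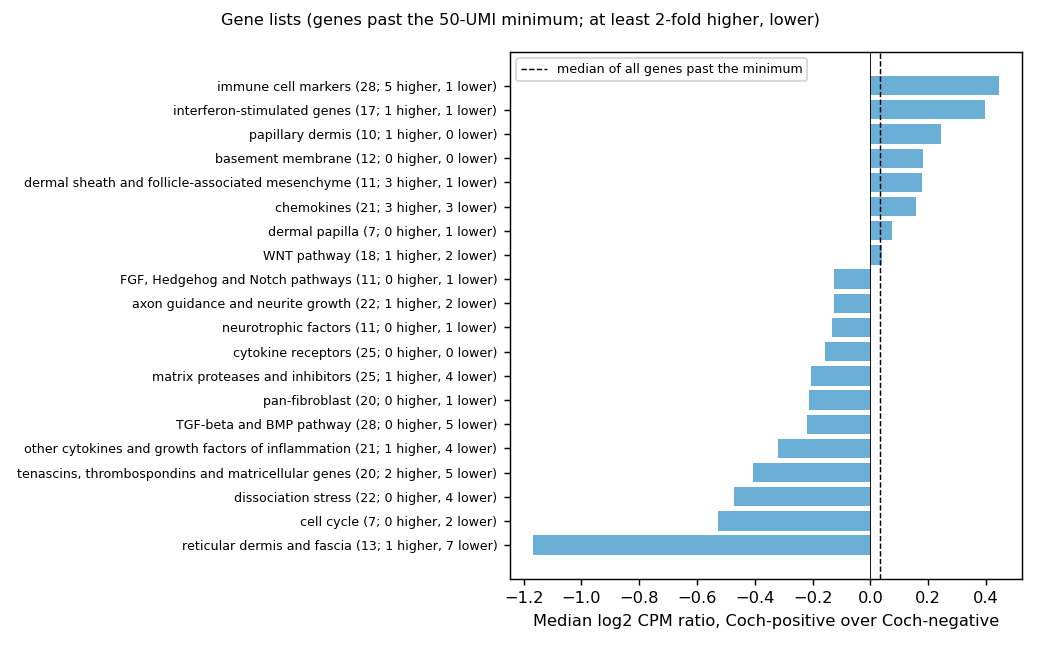
Median log2 CPM ratio of *Coch*-positive over *Coch*-negative fibroblasts (bars) for the gene lists with at least 5 genes past the 50-UMI minimum, with the number of genes and of 2-fold higher and lower ones beside each name; the tendon and cartilage list (median -6.38) is left out and the dashed line is the median of all genes. Immune cell markers had the highest median of the lists drawn (0.45) and reticular genes the lowest (-1.17).

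Chemokines and cytokines had no common direction between members and *Coch*-negative cells. Beside 1.58% of all genes higher and 2.74% lower, of 21 chemokines 3 were 2-fold higher (*Ccl17*, *Cxcl10* and *Ccl5*), 3 were lower (*Cxcl14*, *Ccl11* and *Cxcl5*) and the median was 0.16. *Cxcl14*, a chemokine of skin and resting stroma, had 309 UMIs against 2534, a CPM 8.31 (7.38 to 9.39) times lower, and was still lower at a ratio of 0.212 over the 162 cells. *Cxcl5*, which draws neutrophils, had 756 UMIs against 1679, a ratio of 0.444. Of the latter 699 lay in 2 cells, and without the richer of them (380 UMIs) the ratio was 0.562, within 2-fold. Levels of *Cxcl12*, which retains CXCR4-bearing cells, were 321 and 563 CPM. *Ccl19*, which attracts CCR7-bearing cells, was found in 105 members and 101 *Coch*-negative cells and had a ratio of 0.725 (0.653 to 0.804). *Saa3*, an acute-phase protein of inflamed tissue, was by far the most abundant of the cytokine list, with 44978 UMIs in 163 members (24899.5 CPM) and a ratio of 1.07 (1.05 to 1.08), against 936 CPM in macrophages. Of 21 other cytokine genes 1 was higher (*Tnfsf9*) and 4 lower, with the alarmin *Il33* at 28 against 132 UMIs. Of 25 cytokine receptors 0 differed 2-fold, and *Il1r1*, *Il17ra* and *Osmr*, receptors for interleukins 1 and 17 and oncostatin M, stood at 94.1, 39.9 and 39.3 CPM.

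Signalling genes were counted beside 1.58% of all genes 2-fold higher in members and 2.74% lower (1.83% and 1.36% over the 162 cells). Of 18 WNT genes 1 was higher (*Dkk2*) and 2 lower (*Sfrp1* and *Sfrp2*, secreted WNT antagonists), with a median of 0.04, and over the 162 cells 2 of 17 were higher and 0 lower. Of 28 TGF-β and BMP genes 0 were higher and 5 lower, 1 of 26 over the 162 cells, and the activin antagonist *Fst* stood at 473 and 428 CPM. Of 11 FGF, Hedgehog and Notch genes 0 were higher and 1 lower (*Fgf7*). Of 17 interferon-stimulated genes 1 was higher (*Cxcl10*) and 1 lower, with a median of 0.40, and over the 162 cells 1 of 16 was higher and 0 lower. *Isg15* had 133 UMIs against 75. Of 7 cell cycle genes 0 were higher and 2 lower, with a median of -0.53. Over the 162 cells 0 of 5 were higher and 0 lower, with a median of 0.19. *Mki67* had 13 UMIs in 9 members. Genes of dissociation stress were 2-fold lower in 4 of 22, with a median of -0.47, and in 0 of 22 over the 162 cells. *Fos* stood at 367 CPM in members, 805 in all *Coch*-negative cells and 334 in the 162.

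Immune RNA was present in nearly every member, at a higher summed level than in *Coch*-negative cells. For *S100a8* and *S100a9*, the only immune genes taken per median cell, that cell was at a similar level in both groups. *S100a8* and *S100a9*, the abundant calgranulins of neutrophils, had UMIs in 166 and 168 members, and *S100a9* stood at 8004 CPM in members, 4096 in *Coch*-negative cells and 1573 in C1q macrophages. The median cell had 20.1 UMIs of both genes per 10000 among members and 19.5 among *Coch*-negative cells. The ratio of *S100a8* to *S100a9* UMIs was 1.16 in members, 1.23 in *Coch*-negative cells and 1.05 in macrophages. At least 50 UMIs per 10000 from these genes were found in 41 members and 35 *Coch*-negative cells. *Ptprc*, which encodes CD45, the antigen of the sort per the methods, had a UMI in 62 members, or 36.7% (29.4 to 44.4), in 52 *Coch*-negative cells, or 28.1% (21.8 to 35.2), and in 66.7% (63.4 to 69.9) of macrophages. At 3000 UMIs per cell the shares were 18.7%, 12.5% and 34.1%. Of 28 immune markers with enough UMIs, out of 30 listed, 5 were 2-fold higher in members, beside 1.58% of all genes. These 5 were *Cd3g*, *Cxcr2*, *Nkg7*, *Trbc2* and *Adgre1*, while 1 marker was lower and the median was 0.45. Over the 162 cells 4 of 28 were 2-fold higher and 1 was lower, beside 1.83% and 1.36% of all genes, with a median of 0.32. The list's sum, mostly *S100a8* and *S100a9*, was 27708 CPM in members and 18632 in all *Coch*-negative cells. Free RNA, doublets with immune cells and expression by the fibroblasts cannot be told apart in these sums. The 231 highest doublet scores of the dermal library (4.30% of barcodes) included 27 of the 169 members (16.0%) and 14 of the 185 *Coch*-negative cells. Without cells that held a *Ptprc* UMI 107 members remained, 55 genes were 2-fold higher, 30 of them among the 91, and *Tnc* had a ratio of 0.833. The part of immune RNA in the other ratios was not tested.

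The members were next ordered by *Coch* per 10000 UMIs and divided at 7.66 and 35.8 into low-*Coch*, middle-*Coch* and high-*Coch* members (56, 56 and 57 cells), a division chosen after the values were seen. Within 1.25-fold of these limits lay 19 and 16 cells, so the groups are ranges. Median depth was lower along this order, at 14471.5, 9784 and 6814 UMIs, and the fibroblast genes were at medians of 106, 108 and 191 per 10000. The order divides *Coch* by all UMIs of a cell, so any other RNA in a barcode, immune RNA included, moves it down the order. A low-*Coch* member with at least 2 *Coch* UMIs must also be deep. The lowest depth was 3098 UMIs in low-*Coch* and 503 in high-*Coch* members. Of 2635 genes with at least 50 UMIs in the low-*Coch* and high-*Coch* members together, 138 (5.24%) were at least 2-fold higher and 185 (7.02%) at least 2-fold lower in the high-*Coch* members, with a median log2 ratio of 0.09.

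*Tnmd*, *Fmod*, *Aspn*, *Dkk2*, *Gldn* and *Pi16*, which were taken from several lists after their values were seen, were higher in members with more *Coch*. *Tnmd* stood at 25.0, 53.6 and 418 CPM in low-*Coch*, middle-*Coch* and high-*Coch* members, *Fmod* (fibromodulin, a collagen-binding proteoglycan of tendon) at 3.57, 37.5 and 785, and *Aspn* at 112, 186 and 911. *Dkk2* went through 78.5, 96.5 and 386 CPM, *Gldn* through 35.7, 73.3 and 189.5 and *Pi16* through 84.5, 213 and 802. Among members all 6 were thus highest in the high-*Coch* cells. *Tnmd* and *Fmod* were at similar levels in low-*Coch* members and in the 162 *Coch*-negative cells, where *Tnmd* stood at 21.6 and *Fmod* at 5.39 CPM. The 23 *Coch*-negative cells with cartilage genes are not in that comparison. Their dermal sheath list summed to 2214 CPM, against 2323 in high-*Coch* members and 758 in the 162 cells. A high level of that list was thus not confined to high-*Coch* members. The high-over-low ratio was 16.7 (10.6 to 27.8) for *Tnmd*, 4.92 (3.67 to 6.67) for *Dkk2*, 5.31 (3.44 to 8.39) for *Gldn* and 9.50 (7.33 to 12.5) for *Pi16*. *Lepr* (11.9, 19.7 and 160.0), *Mmp11* (30.9, 91.2 and 212), *Wisp1* (17.8, 12.5 and 126), *Wif1*, a WNT inhibitor (17.8, 73.3 and 192), *Crabp1* (433, 709.6 and 1179) and *Postn* (572, 636 and 1172) were also highest in the high-*Coch* members. All genes gave 5.24% higher and 7.02% lower. Of 7 dermal sheath genes with enough UMIs 5 were 2-fold higher and 1 lower (*Abi3bp*), and of 9 WNT genes 6 were higher (*Fzd1*, *Fzd2*, *Wif1*, *Dkk2*, *Dkk3* and *Twist1*) and 0 lower. Of 14 matricellular genes 5 were higher and 2 lower, with *Igfbp7*, an insulin-like growth factor binding protein, at 1219, 1471 and 3874. Of 20 pan-fibroblast genes 1 (*Postn*) was higher and 3 lower, of 7 papillary genes 3 were higher and 0 lower, of 9 reticular genes 3 were higher and 2 lower, and of 5 axon guidance genes 2 (*Gldn* and *Nrp2*) were higher and 0 lower. *Ogn* (osteoglycin, a proteoglycan), chosen after its values were seen, stood at 14.3, 32.2 and 288 CPM. When members were divided by *Coch* per UMI of the fibroblast genes instead, which the higher fibroblast content of the high-*Coch* members does not enter in the same way, the ratios were 12.0 for *Tnmd*, 4.03 for *Dkk2*, 4.01 for *Gldn* and 6.21 for *Pi16*, and 102 genes were 2-fold lower in place of 185.

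The shares of cells with these genes also differed at equal depth. At 3000 UMIs per cell, which left out 0, 4 and 11 cells, the expected share with a *Tnmd* UMI was 5.79%, 12.2% and 45.3%, that with a *Gldn* UMI 11.6%, 21.0% and 45.9%, and that with a *Pi16* UMI 17.6%, 30.9% and 66.5%. *Fmod* went from 0.820% to 46.9%, against 0.446% in macrophages. Within single members these genes met: 28 of the 53 members with *Tnmd* also held *Fmod* (52.8%), against 6.90% of the members without *Tnmd*, and 41 of the 93 with *Pi16* held *Tnmd* (44.1%), against 15.8% of the others. These counts share cells and depth and are given as a description.

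*Tnc*, in contrast, stood at 623, 685 and 608 CPM with a high-over-low ratio of 0.975 (0.835 to 1.14), and its expected share at equal depth was 55.6%, 56.7% and 53.8%. The fibrillar collagens were level or lower, with *Col1a1* at 992, 1079.6 and 945 CPM and *Col3a1* at 2045, 1493 and 1132. *Tnc* and *Dkk2* shared 74 members, and *Dkk2* was in 62.2% of the members with *Tnc* and 38.0% of those without. *Tnc* and *Gldn* shared 49 members, 41.2% of those with *Tnc* and 52.0% of those without it holding *Gldn*. The shares of both pairs were not matched for depth. *Tnc* was thus found in most members, as in 102 of the 185 *Coch*-negative cells, and its level did not follow that of *Coch*.

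**Figure D5:**
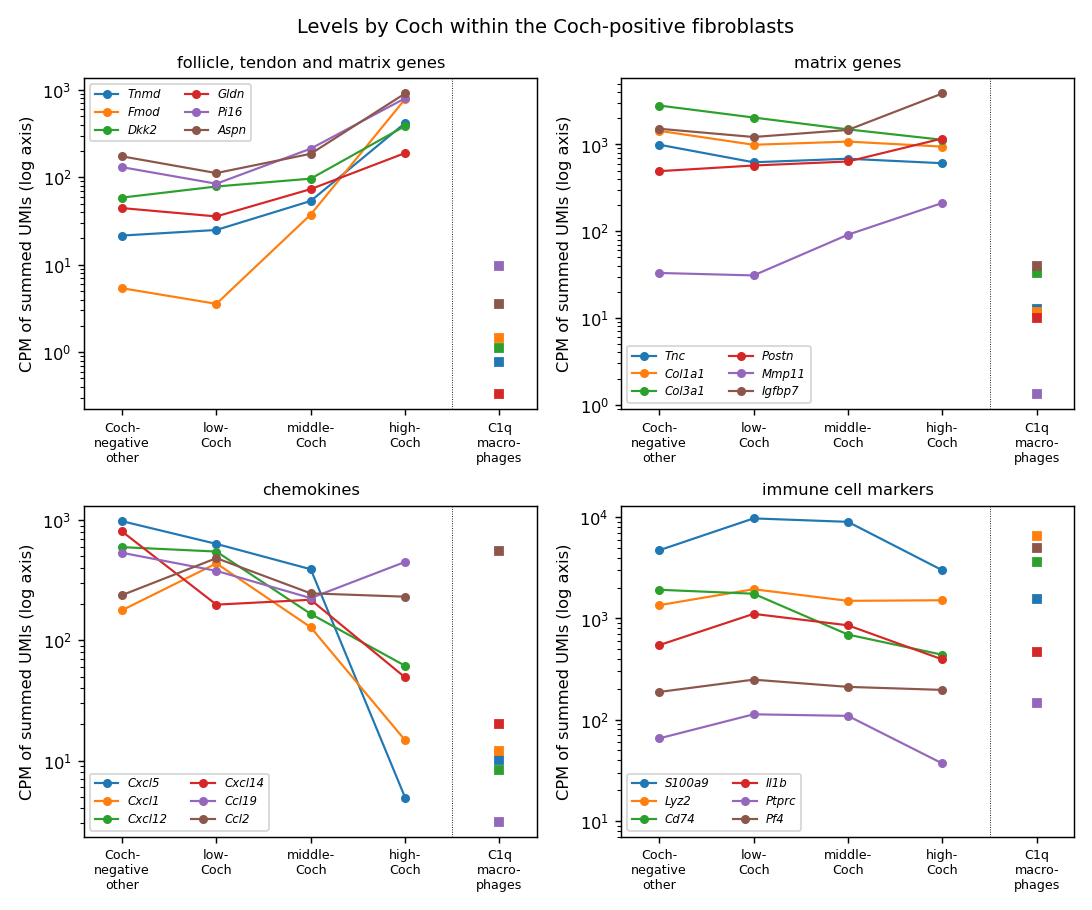
CPM of summed UMIs (vertical, log axis) of 24 genes in the 162 *Coch*-negative fibroblasts without cartilage genes, in low-*Coch*, middle-*Coch* and high-*Coch* members (lines) and in C1q macrophages (squares). Among the fibroblast groups drawn, the 6 genes of the first panel are highest in the high-*Coch* members and *Cxcl5*, *Cxcl1*, *Cxcl12*, *S100a9* and *Cd74* are lowest there, while *Tnc* is level among members.

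Chemokines and most other cytokine genes ran the other way. Of 17 chemokines with enough UMIs 13 were at least 2-fold lower in high-*Coch* than low-*Coch* members and 0 higher, against 7.02% of all genes, with a median log2 ratio of -1.74. The whole list, with *Cxcl2* the most abundant, summed to 7695, 5368 and 2533 CPM. Macrophages had 7137 and the 162 *Coch*-negative cells 6482, so the sum in low-*Coch* members was near that of macrophages. *Cxcl5* stood at 636, 391 and 4.92 CPM (the last from 2 UMIs), *Cxcl1*, which also draws neutrophils, stood at 438, 129 and 14.8, and *Cxcl12* at 549.6, 166 and 61.5. Macrophages were at 10.2, 12.0 and 8.42 CPM and the 162 *Coch*-negative cells at 984, 178 and 598, so the low level of *Cxcl5* and *Cxcl12* in high-*Coch* members also stood out against fibroblasts without *Coch*. *Ccl7*, which draws monocytes, went through 454, 289.6 and 103 CPM, but macrophages had 697. *Ccl19* did not follow this order, at 379, 225 and 450.4 CPM. Among other cytokines 9 of 13 were 2-fold lower and 0 higher, with *Lcn2* (lipocalin-2, an antimicrobial protein) at 1203, 761 and 310.1 and *Il6* at 59.5, 75.1 and 12.3. *Saa3*, at 35175, 14262 and 18287, was within 2-fold between high-*Coch* and low-*Coch* members and lowest in the middle-*Coch* members. Of 15 cytokine receptors 0 were higher and 2 lower, with a median log2 ratio of 0.01, and of 7 interferon-stimulated genes 2 were higher (*Isg15* and *Bst2*) and 0 lower, with a median of 0.51. Of 22 dissociation stress genes 0 were higher and 4 lower, with a median of -0.65 and a sum of 10500.5, 10621 and 7022 CPM, and the part of this difference in the chemokine levels was not tested. Of 18 proteases and inhibitors 2 were higher and 5 lower. *Mmp3* stood at 1248, 1610.5 and 492 CPM and *Mgp* at 188, 21.4 and 19.7. *Ptx3*, a pentraxin chosen after its values were seen, stood at 197, 3.57 and 2.46, with 158 of its 169 UMIs in 1 cell.

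Immune RNA was lower along the same order. Since immune UMIs in a barcode lower its *Coch* per 10000 UMIs, part of this can follow from the division itself, and that part was not tested. *S100a9* was at 9752, 9014 and 2995 CPM, *Ptprc* at 113, 109 and 36.9 and *Cd74*, the invariant chain of antigen-presenting cells, at 1756, 694 and 438, and of 21 immune markers 11 were 2-fold lower in the high-*Coch* members, beside 7.02% of all genes, and 0 higher. The median cell had 22.1, 20.5 and 17.9 *S100a8* and *S100a9* UMIs per 10000, and 19, 15 and 7 cells had at least 50. At 3000 UMIs per cell the share with a *Ptprc* UMI was 23.5%, 23.4% and 7.65%. Of the 27 members with the highest doublet scores 17 were low-*Coch*, 8 middle-*Coch* and 2 high-*Coch*. Without members that held a *Ptprc* UMI, and with the group limits set anew among the remaining members, *S100a9* had a high-over-low ratio of 3.21. The order thus turned, but between groups that differ from those above. Without the members that held at least 50 *S100a8* and *S100a9* UMIs per 10000, and with limits again set anew, 8 chemokines were 2-fold lower in the high-*Coch* members, in place of 13. The part of immune RNA in the other chemokine levels was not tested. Cells with *Cxcl5* mostly held *Tnc*: 28 of the 31, or 90.3%, against 65.9% of the members without *Cxcl5*. These shares were not matched for depth and are given as a description.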

How the data were processed

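Per the file headers the deposited matrices hold counts of UMIs per gene and barcode that the authors made with CellRanger 3.0.2 from 3′ libraries; the submitters' processing notes name mm10. The deposited counts were used unscaled, and a level needs no gene length since 1 UMI stands for 1 transcript. Of 5376 dermal barcodes 13 held under 200 genes, 26 over 5000 and 628 over 10% mitochondrial UMIs (the study's own limit was stricter). UMIs were summed per group and given as CPM. Ratios were taken for genes that reached 50 UMIs in the compared groups together, and the counts of 2-fold differences a pseudocount of 0.5 UMIs. Intervals were exact conditional (ratios) or Clopper-Pearson (shares), at 95%. Expected shares at 3000 UMIs came from the hypergeometric distribution per cell. C1q macrophages had at least 20 *C1qa*, *C1qb* and *C1qc* UMIs per 10000 and under 20 of the fibroblast genes. Doublets were kept; the automatic threshold of Scrublet (scanpy 1.11.5) marked 0 cells, so an alternative removed the 231 highest scores. Of 31053 gene identifiers 30934 were found in GENCODE M21.

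The genes named were members of 26 lists (within each the largest, most abundant and smallest ratios) and the 15 largest and 10 smallest ratios among genes that reached 100 UMIs, without gate, mitochondrial, ribosomal and unnamed genes. Exceptions chosen after their values were seen were *Ptx3* and *Ogn*. The members and lists were chosen with earlier results of these data known. The computation was tested on simulated data. Python 3.11.15 with numpy 2.4.6, scipy 1.17.1 and pandas 2.3.3 was used. Both libraries had 1 sample, so depth limits the counting error only. Alternatives changed the cell limits, the gene minimum, the pseudocount, the weighting of cells and the cells left out.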

Additional observations from a re-analysis of the deposited data

Results flagged for a closer look

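Outside the fibroblast limits, 78 further dermal cells within the limits on genes and mitochondria held at least 2 *Coch* UMIs, 281 UMIs in all with a median of 2 per cell; they are listed because the comparisons leave them out. Since they were chosen for their *Coch* UMIs, the sum describes them only. Of these cells 75 had fewer fibroblast-gene UMIs than the limit, 20 reached the limit of the C1q genes and 0 that of the keratins. The epidermal library had 0 *Coch* UMIs.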

How the results depend on the processing

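No paired analysis was possible because dermis and epidermis were sequenced as 1 library each. The members numbered 169, with 91 genes 2-fold higher and 158 lower than in *Coch*-negative cells, a *Tnc* ratio of 0.745, 70.4% of members with *Tnc*, 1 axon guidance gene and 3 chemokines 2-fold higher. The counts of alternatives also cover the values between high-*Coch* and low-*Coch* members in the next paragraph. Among all these values 55 under planned and 34 under added alternatives stayed close to the main value. Another 26 and 20 moved, as follows here and in the next paragraph, and the cause was not tested. Removing the highest doublet scores gave a *Tnc* ratio of 0.816. With *Coch* at 1 UMI or more, 91 genes were lower, the *Tnc* ratio was 0.828 and 0 axon guidance genes were higher, and the ratios of *Angptl7* (2.77) and *Col8a1* (1.84) reversed. With 3 UMIs or more *Tnfsf9* reversed (0.904). Without *Ptprc*-bearing cells 107 members remained, 55 genes were higher, the *Tnc* ratio was 0.833 and *Il1f9* reversed (0.497). Cells with at least 5000 UMIs gave 0 axon guidance genes and 5 chemokines. Thinning to 3000 UMIs, which left out 15 members and 43 *Coch*-negative cells, gave 32 genes higher and 54 lower, a *Tnc* ratio of 0.840 and share of 55.5%, 2 axon guidance genes and 0 chemokines. A mean over cells gave 204 higher and 243 lower, a *Tnc* ratio of 0.998, 2 axon guidance genes and 1 chemokine. Without the member richest in each gene 52 genes were higher. A minimum of 100 UMIs gave 40 higher and 85 lower, and one of 20 UMIs 266 and 359, with 5 axon guidance genes. The remaining alternatives were added after the data were seen. Without the 23 cells with cartilage genes 73 were lower (67 of them among the 158), the *Tnc* ratio was 0.643 and 0 axon guidance genes were higher. Without the *Coch*-negative cell richest in each gene 172 genes and 5 chemokines were higher and the *Tnc* ratio was 0.839, and with *S100a8* and *S100a9* under 50 per 10000 it was 0.939. With *Coch* of at least 10 per 10000 UMIs 104 members remained, 2 axon guidance genes and 1 chemokine were higher, and *Ccl17* (0.369) and *Tnfsf9* (0.677) reversed. The *Tnc* ratio thus stayed under 1 in each alternative, from 0.643 to 0.998.

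Between high-*Coch* and low-*Coch* members 138 genes were 2-fold higher and 185 lower. For the alternatives on *Ptprc*, on *S100a8* and *S100a9* and on 5000 UMIs, the group limits were set anew among the remaining members. The lower count was 77 without *Ptprc*-bearing cells, where *S100a9* reversed (3.21), and 104 with *S100a8* and *S100a9* under 50 per 10000, with 8 chemokines lower in place of 13. It was 93 for cells with at least 5000 UMIs, 286 without the high-*Coch* member richest in each gene and 102 with *Coch* taken per fibroblast-gene UMI. A minimum of 100 UMIs gave 59 higher and 101 lower, and one of 20 UMIs 422 and 413. With 1 library and pooled or single animals not told apart, no value has a replicate error.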
